A study of Mus musculus with 8 samples.

Results

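Snap25, Stx1a, Vamp1, Vamp2, Unc13a, Rims1, Rims2 and Bsn encode proteins of the nerve terminal that fuse synaptic vesicles with the plasma membrane or hold them at the site of fusion. These 8 genes were chosen by name among the 13996 genes with FPKM values, a measure of RNA level that corrects for transcript length and for the number of mapped fragments. Their RNA was compared between the brain cortexes of 4 mice on a normal diet and 4 mice on a high fat diet (HFD). All mice were male C57BL/6, an inbred strain. They entered the study at 8 weeks of age, received the conventional diet or the diet with 60% fat for 8 weeks, and were sacrificed under ether at 16 weeks. Each mouse gave 1 library of rRNA-depleted total RNA, and no allele or drug is named for either group.

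Neurotransmitter release depends on SNARE proteins, which form a bundle that pulls vesicle and plasma membrane together. Snap25 and syntaxin 1 (Stx1a) lie on the plasma membrane, and the synaptobrevins (Vamp1 and Vamp2) lie on the vesicle. The active zone is the protein meshwork at which this occurs. Munc13-1 (Unc13a) prepares vesicles for fusion, RIM proteins (Rims1 and Rims2) link vesicles to calcium channels and to Munc13, and bassoon (Bsn) is a giant scaffold. In the cortex Vamp2 is the common synaptobrevin, while Vamp1 is found in fast-spiking interneurons and is prominent in thalamus, brainstem and spinal cord.

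In HFD mice, Bsn and Vamp2 were higher without overlap between the diets, and Stx1a was higher with overlap. On the log2(FPKM + 0.1) scale the fold change was 1.96 for Bsn, 1.58 for Vamp2 and 1.41 for Stx1a. With limma over all 13982 genes within the filter (those whose mean FPKM reached 1 and that were above 0 in each mouse), these 3 of the 8 genes passed an adjusted p of 0.05, all in the direction of HFD. Over all genes tested, 33.1% passed in either direction and 17.7% passed as higher, so the count of 3 is close to the background, while the sizes of Bsn and Vamp2 exceed those of most genes. Only 0.966% of genes had a larger increase than Bsn, 3.45% had a larger increase than Vamp2 and 7.2% had a larger increase than Stx1a. The change exceeded 50% for 2 members, Bsn and Vamp2, against 7.13% of all genes. The 4 values of each diet were apart for the same pair of genes, against 31.9% of all genes. The other 5 genes did not pass the threshold. The median log2 fold change was 0.178 over the 8 genes and 0.00311 over all genes tested.

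**Figure D1:**
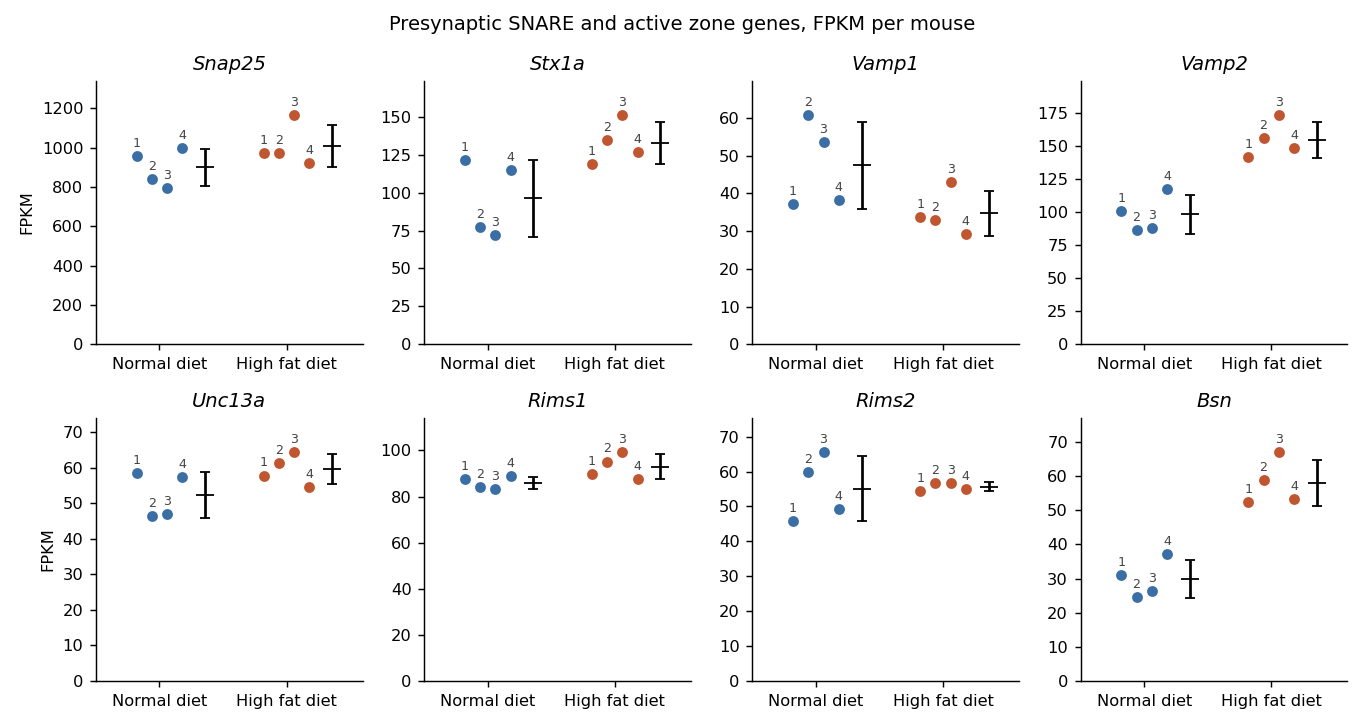
FPKM of the 8 genes (y axis, from 0) in each mouse of the normal diet (blue) and HFD (orange), with the replicate number above each point and mean ± SD (n = 4) in black. Bsn and Vamp2 are higher in each HFD mouse than in each normal mouse, and normal mice 2 and 3 lie apart from normal mice 1 and 4 in each panel.

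The libraries of the normal diet were not alike. The summed FPKM of 7 cerebellar marker genes was 23.9, 238.4, 311.4 and 88.1 in normal mice 1 to 4 and between 14.0 and 18.9 in HFD mice. The sum of 7 thalamic markers was 80.8 and 67.1 in normal mice 2 and 3 and between 23.2 and 35.3 in the other normal mice, against 18.3 to 22.5 in HFD mice. The sum of 7 striatal markers was 205 to 375.8 in normal mice and 58.0 to 68.3 in HFD mice. Gabra6 and Cnpy1 (cerebellum) and Shox2 (thalamus) were listed at 0 in an HFD mouse. Markers of cortical projection neurons, the main excitatory cells of the cortex, were present in all mice, with a sum of 94.9 to 136.8 in normal mice and 149.8 to 173.3 in HFD mice. The sum of 8 pan-neuronal markers varied little, between 1255.1 and 1275.2 in normal mice and between 1223.8 and 1301.8 in HFD mice. Its genes were not all flat, as 2 passed the threshold as lower, 0 as higher and 6 did not pass. The sum of 6 oligodendrocyte markers was 2019.1 to 3338.7 in normal mice and 1396.4 to 1937.4 in HFD mice, with 6 of 6 genes past the threshold as lower. The sum of 8 GABAergic interneuron markers was 563.8 to 588.7 and 490 to 562.3, also without overlap. Its genes were mixed, with 2 past the threshold as higher, 3 as lower and 3 not past it. The sums of astrocyte and microglia markers overlapped between the diets. In such bulk tissue, fewer cells of a type and less RNA per cell cannot be told apart. Normal mice 2 and 3 lay on the same side of normal mice 1 and 4 for 8 of the 8 genes, below them for 6 and above them for 2, a pattern held by 53.3% of all genes tested. The results of the 8 genes are therefore also given without normal mice 2 and 3, an alternative chosen after seeing the data. It does not make the diets alike in these markers. Normal mice 1 and 4 had striatal sums of 375.8 and 205.0 and cerebellar sums of 23.9 and 88.1, all above those of HFD mice. Values that persist without normal mice 2 and 3 are therefore not free of a difference in tissue content. The part of other brain regions and cell types in these results was not tested beyond the values given.

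The plasma membrane SNAREs were represented by Snap25 and Stx1a. Snap25 (chromosome 2, 136713453 to 136782428 of GRCm38, plus strand) was by far the most abundant of the 8 genes. Its FPKM was 958.8, 841.5, 796.5 and 997.9 in normal mice and 970.8, 970.2, 1163.4 and 923.4 in HFD mice. Normal mice 2 and 3 were lowest, HFD mouse 3 was highest, and the diets overlapped. The mean was 898.7 ± 95.2 (SD, n = 4) on the normal diet and 1007 ± 107 (SD, n = 4) on HFD. The log2 fold change of 0.16 (95% interval -0.056 to 0.38, limma adjusted p = 0.223) did not pass, and without normal mice 2 and 3 it was 0.036.

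Stx1a (chromosome 5, 135023482 to 135051100, plus strand) showed 121.7, 77.3, 71.9 and 114.7 FPKM in normal mice and 118.9, 134.6, 151 and 126.6 in HFD mice. HFD mouse 1 lay below normal mouse 1, and the low values of the normal diet were again those of mice 2 and 3. The mean was 96.4 ± 25.4 on the normal diet and 132.8 ± 13.7 on HFD (SD, n = 4 each). The log2 fold change was 0.49 (standard error, SE, 0.17; limma adjusted p = 0.0465), just past the threshold. This call rested on mice 2 and 3 of the normal diet. Without them the log2 fold change was 0.16 (SE 0.09, limma adjusted p = 0.235), and leaving out any other mouse than normal mouse 1 or 4 also ended the call, with an adjusted p of up to 0.118. In limma with the mean relative FPKM of cerebellar markers as a linear covariate, also chosen after seeing the data, the log2 fold change of Stx1a was 0.079 (adjusted p = 0.607), and with the planned covariate on the log2 scale it was -0.23 (adjusted p = 0.552).

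The vesicle SNAREs were represented by Vamp2 and Vamp1. Vamp2 (chromosome 11, 69088490 to 69092384, plus strand) is the shortest of the 8 genes, spanning 3.9 kb. Its FPKM was 101.0, 86.1, 88.1 and 117.7 in normal mice and 141.4, 155.8, 173.1 and 148.4 in HFD mice. The lowest HFD mouse stood above the highest normal mouse. Vamp2 rose from 98.2 ± 14.6 to 154.7 ± 13.6 (SD, n = 4 each), a log2 fold change of 0.66 (SE 0.10, limma adjusted p = 0.00195). When single mice were left out, it stayed between 0.60 and 0.75 and passed in 8 of 8 fits. Without normal mice 2 and 3 it was 0.50 (SE 0.09, limma adjusted p = 0.0114), past the threshold but below a change of 50%, and with the same linear cerebellar covariate it was 0.49 (limma adjusted p = 0.0185). The planned covariates, the marker levels on the log2 scale, ended the call. Vamp2 was then 0.42 with cerebellar markers (SE 0.18, limma adjusted p = 0.239), 0.38 with thalamic markers (SE 0.12, limma adjusted p = 0.101) and -0.16 with striatal markers (SE 0.53). None of these 3 marker sums overlapped between the diets, the striatal sums being the farthest apart, so marker level and diet cannot be told apart fully in these fits.

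Vamp1 (chromosome 6, 125215551 to 125245964, plus strand) gave 37.1, 60.7, 53.6 and 38.3 FPKM in normal mice and 33.7, 32.9, 43 and 29.2 in HFD mice. Here normal mice 2 and 3 were the highest of all 8 mice, and HFD mouse 3 lay above normal mice 1 and 4. The mean was 47.4 ± 11.6 on the normal diet and 34.7 ± 5.87 on HFD (SD, n = 4 each). The log2 fold change of -0.43 (95% interval -0.81 to -0.05, limma adjusted p = 0.0782) did not pass. It passed without normal mouse 1, normal mouse 4 or HFD mouse 3 (limma adjusted p = 0.0379, 0.0478 and 0.0461), and it shrank to -0.13 without normal mice 2 and 3 (limma adjusted p = 0.503). Other genes were also higher in normal mice 2 and 3 than in normal mice 1 and 4, a pattern held by 26% of all genes tested. Pvalb, a calcium buffer of fast-spiking interneurons and Purkinje cells, was 140.3 and 145.8 FPKM in normal mice 2 and 3 and 50.1 and 60.5 in normal mice 1 and 4. Syt2, a fast calcium sensor of release, was 24.9 and 28.4 against 10 and 11.5, and the heavy neurofilament Nefh was 40.7 and 37.1 against 23.4 and 21.9. These 3 genes were picked after their values had been seen. The GABAergic interneuron markers other than Pvalb did not share 1 direction. Gad2 and Kcnc1 were also higher in normal mice 2 and 3 than in normal mice 1 and 4. Sst, Vip, Npy and Lhx6 were lower in them, and Gad1 overlapped. The cell source of the Vamp1 values was not tested.

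As FPKM is scaled per length, the balance of the related genes can be read within each mouse. The ratio of Vamp1 to Vamp2 FPKM was 0.367, 0.705, 0.608 and 0.325 in normal mice and 0.238, 0.211, 0.248 and 0.197 in HFD mice. It was lower in each HFD mouse than in each normal mouse, also than in normal mice 1 and 4. The mean log2 ratio was lower by 2.14-fold on HFD (exact two-sided permutation test over 70 assignments, p = 0.0286, the smallest that this design allows, adjusted p = 0.0714 over 5 pairs), and by 1.55-fold without normal mice 2 and 3. With 5 pairs, at least 3 would have to reach that smallest p for an adjusted p under 0.05, so this test had little room.

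**Figure D2:**
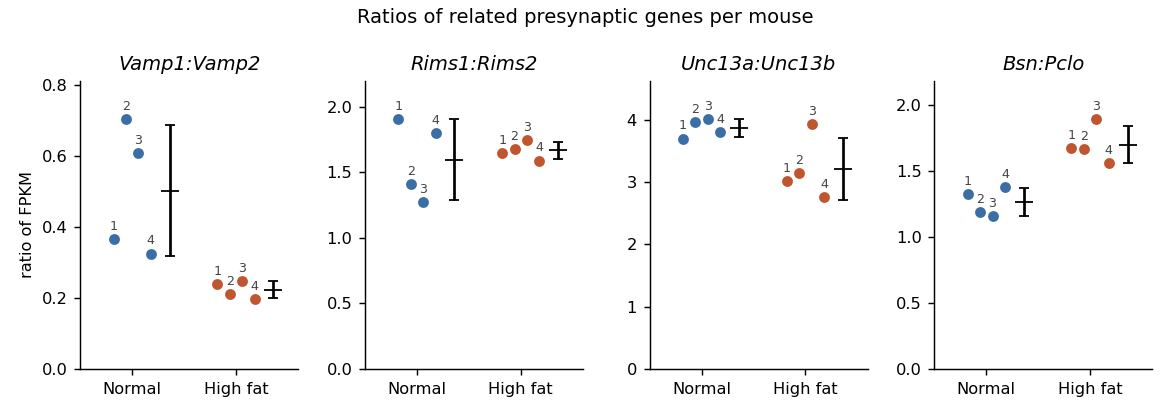
Ratio of FPKM (y axis, from 0) of 4 pairs of related genes in each mouse of the normal diet (blue) and HFD (orange), with replicate numbers above the points and mean ± SD (n = 4) in black. The diets are apart for Vamp1:Vamp2 and Bsn:Pclo and overlap for the other two pairs.

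Among the active zone genes, Bsn (chromosome 9, 108096022 to 108190384, minus strand) showed the largest change of the 8 genes. Its FPKM was 31, 24.7, 26.4 and 37.3 in normal mice and 52.5, 58.9, 67.1 and 53.4 in HFD mice. The gap between the highest normal mouse and the lowest HFD mouse exceeded the whole range of the normal mice. Bsn rose from 29.9 ± 5.64 to 58.0 ± 6.71 (SD, n = 4 each), a log2 fold change of 0.97 (SE 0.13, limma adjusted p = 0.00112). When single mice were left out, the value stayed between 0.88 and 1.08 and passed in 8 of 8 fits. Without normal mice 2 and 3 it was 0.76 (SE 0.11, limma adjusted p = 0.00601), and with the linear cerebellar covariate 0.75 (limma adjusted p = 0.00956), still beyond a change of 50%. The planned log2 covariates ended this call as well. Bsn was 0.65 with cerebellar markers (SE 0.22, limma adjusted p = 0.163), 0.61 with thalamic markers (SE 0.15, limma adjusted p = 0.0584) and -0.069 with striatal markers (SE 0.65).

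Piccolo (Pclo), the large scaffold related to bassoon, was also higher on HFD. Pclo increased from 23.5 ± 2.64 to 34.0 ± 1.94 FPKM (SD, n = 4 each), a log2 fold change of 0.54 (SE 0.08, limma adjusted p = 0.00163). The ratio of Bsn to Pclo was 1.33, 1.19, 1.16 and 1.38 in normal mice and 1.68, 1.67, 1.9 and 1.56 in HFD mice, without overlap. Its mean log2 was higher by 1.35-fold on HFD (exact permutation p = 0.0286, adjusted p = 0.0714 over 5 pairs), and by 1.26-fold without normal mice 2 and 3. Without these mice the log2 fold change of Pclo was 0.43 (limma adjusted p = 0.0106).

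Unc13a (chromosome 8, 71624417 to 71671757, minus strand) was 58.4, 46.3, 47 and 57.5 FPKM in normal mice and 57.8, 61.2, 64.4 and 54.7 in HFD mice. The low values were those of normal mice 2 and 3, and HFD mice overlapped with the other normal mice. Its log2 fold change was 0.19 (95% interval -0.0065 to 0.39, limma adjusted p = 0.123), and 0.036 without normal mice 2 and 3. A stretch of 495 bases shared with Colgalt1, on the opposite strand, is exonic in both genes. Reads there can be told apart only if strand was used in counting, which the sources used here do not say. Unc13b, which encodes Munc13-2, rose from 13.6 ± 2.18 to 18.7 ± 1.57 FPKM (log2 fold change 0.47, limma adjusted p = 0.0114), but did not pass without normal mice 2 and 3 (0.27, limma adjusted p = 0.0537). The ratio of Unc13a to Unc13b was 3.7 to 4.02 in normal mice and 2.76 to 3.93 in HFD mice, overlapping only through HFD mouse 3 (exact permutation p = 0.0857, adjusted p = 0.143).

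The RIM genes are the longest of the 8, spanning 519.7 kb for Rims1 (chromosome 1, 22286251 to 22805994, minus strand) and 486.1 kb for Rims2 (chromosome 15, 39198261 to 39684372, plus strand). Rims1 was nearly constant, with 87.4, 84.2, 83.2 and 88.7 FPKM in normal mice and 89.7, 95.2, 99.3 and 87.4 in HFD mice. The log2 fold change was 0.11 (95% interval -0.0006 to 0.22, limma adjusted p = 0.115), so a change above 50% lay outside the interval, and without normal mice 2 and 3 it was 0.076 (limma adjusted p = 0.406). Rims2 was 45.8, 59.9, 65.6 and 49.2 FPKM in normal mice and 54.5, 56.8, 56.7 and 54.9 in HFD mice. The HFD mice lay within a narrow band between the low normal mice 1 and 4 and the high normal mice 2 and 3, with an SD of 1.19 against 9.21. Over all 8 mice the log2 fold change of Rims2 was 0.03 (95% interval -0.20 to 0.26, limma adjusted p = 0.838). Without normal mice 2 and 3, each HFD mouse was above the remaining normal mice, and the log2 fold change was 0.23 (SE 0.05, limma adjusted p = 0.0182). With the linear cerebellar covariate it was 0.29 (limma adjusted p = 0.00643), with the planned one on the log2 scale 0.50 (limma adjusted p = 0.0485), and with a linear thalamic covariate 0.26, not past the threshold (limma adjusted p = 0.0683). The ratio of Rims1 to Rims2 was 1.27 to 1.91 in normal mice and 1.59 to 1.75 in HFD mice (exact permutation p = 0.6, adjusted p = 0.6 over 5 pairs).

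**Figure D3:**
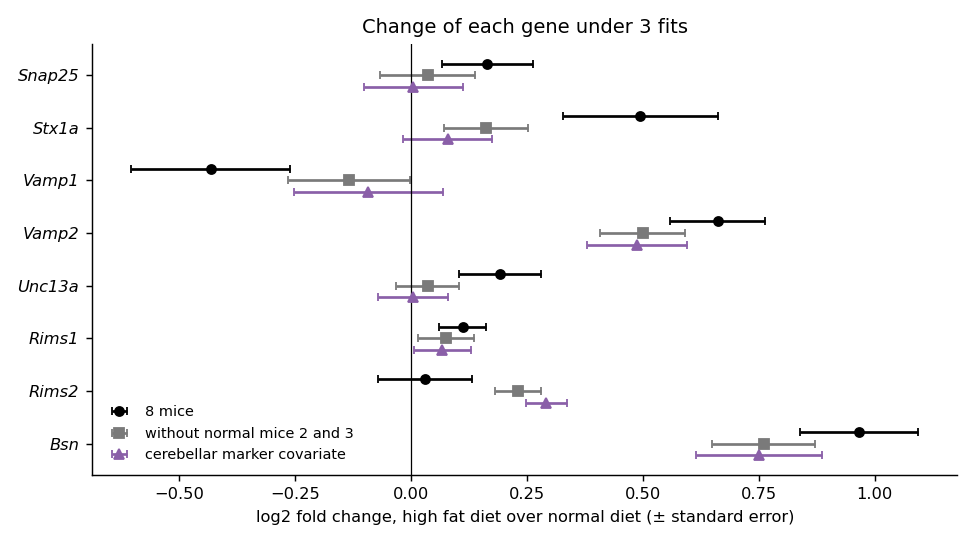
Log2 fold change of HFD over normal diet (x axis, ± standard error from limma) for the 8 genes with all 8 mice (black circles), without normal mice 2 and 3 (grey squares) and with the mean relative FPKM of cerebellar markers as a linear covariate (purple triangles), the last pair of fits chosen after seeing the data. Bsn and Vamp2 stay above 0.48 in the 3 fits, Stx1a moves from 0.49 toward 0, and Rims2 moves from 0.03 to 0.23 and 0.29. The planned covariates on the log2 scale are not drawn, and with them neither Bsn nor Vamp2 passed the threshold. Bsn was then 0.65 with cerebellar, 0.61 with thalamic and -0.069 with striatal markers. Vamp2 was 0.42, 0.38 and -0.16 in the same order.

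The order of levels within a diet was led by Snap25, at 9.15 times the mean FPKM of Vamp2 on the normal diet and 6.51 times on HFD. In normal mice Vamp2, Stx1a and Rims1 followed with overlapping ranges, at means of 98.2, 96.4 and 85.9. Rims2, Unc13a and Vamp1 formed the next overlapping series, at 55.1, 52.3 and 47.4, and Bsn was the lowest in each normal mouse. In HFD mice the ranges of Vamp2 and Stx1a still overlapped, but Stx1a exceeded Rims1 in 4 of 4 mice without overlap. Unc13a, Bsn and Rims2 had overlapping neighbours at 59.5, 58.0 and 55.7 FPKM, and Vamp1 was the lowest in each HFD mouse. Bsn thus left the last place of the order, which Vamp1 took on HFD. Within the HFD group, mouse 3 was the highest for 7 of the 8 genes, and 29.4% of all genes tested had their highest HFD value in that mouse.

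**Figure D4:**
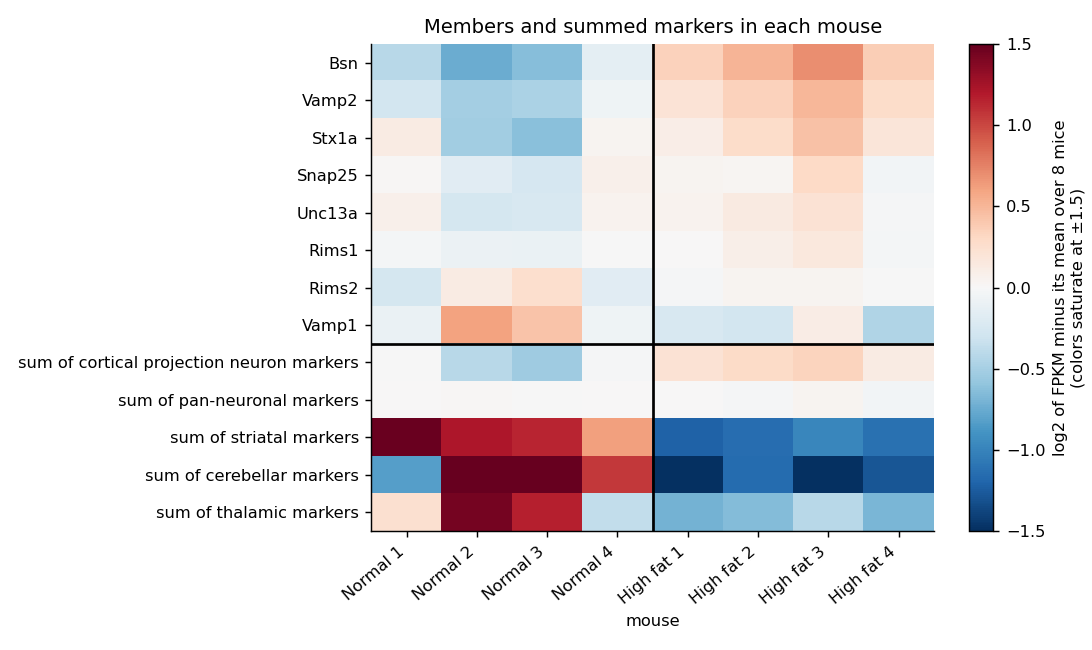
Log2 of FPKM minus its mean over the 8 mice (color, saturated at ±1.5) for the 8 genes and for the summed FPKM of 5 marker lists, with mice in columns. Cerebellar and thalamic sums are highest in normal mice 2 and 3, where Vamp1 and Rims2 are high and the other 6 genes are low.

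Since the projection neuron markers were also higher on HFD (5 of 8 past the threshold in limma, 0 lower), each gene was divided by their summed FPKM in the same mouse, a measure chosen after seeing the data and described without a test. Bsn per projection neuron sum was 0.227 to 0.278 in normal mice and 0.329 to 0.387 in HFD mice, so the diets remained apart. Vamp2 was 0.738 to 0.928 and 0.887 to 0.999, and Stx1a was 0.751 to 0.89 and 0.746 to 0.871, both with overlap. Snap25, Vamp1, Unc13a and Rims1 were lower in each HFD mouse than in each normal mouse on this scale, Snap25 at 7.01 to 8.39 against 5.79 to 6.71. The divisor was itself higher in each HFD mouse than in each normal mouse, so a gene with unchanged FPKM comes out lower here. The share of all genes apart on this scale was not computed, so these lower values do not show a loss of the genes per neuron. Divided by the pan-neuronal sum, Bsn was 1.95 times and Vamp2 1.58 times as high on HFD, without overlap, as with plain FPKM. Rims1, which overlapped on the FPKM scale, was also higher in each HFD mouse on this scale, at 0.0707 to 0.0765 against 0.066 to 0.0699. Its ratio of means was only 1.09. The share of all genes apart on the pan-neuronal scale was not computed either, and on plain FPKM it was 31.9%.

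The wider presynaptic machinery was described with 4 lists of 70 genes, of which 69 were tested. The lists were chosen with earlier results of these data known, so their counts do not test for an excess over all genes. In limma over all genes, 25 of the 69 genes rose and 6 fell, where 17.7% of all genes tested passed as higher and 15.3% as lower. Their median log2 fold change was 0.123. Without normal mice 2 and 3, 14 rose and 5 fell, where 19.6% of all genes tested passed in either direction. With the planned log2 covariates, 0 of the 69 genes passed with cerebellar or striatal markers (18 and 0 at an unadjusted p under 0.05 in limma), and 2 rose and 3 fell with thalamic markers. Of all genes tested, 1.35% passed with cerebellar, 0% with striatal and 3.05% with thalamic markers. At an unadjusted p under 0.05 in limma, 2810 of 13982 genes passed with cerebellar and 276 with striatal markers. Of 17 tested SNARE family genes and regulators, 4 rose and 1 fell, 5 in all against 33.1% of all genes in either direction. Snph, a syntaxin-binding protein that anchors mitochondria in axons, rose from 60.6 ± 7.8 to 80.8 ± 6.79 FPKM (log2 fold change 0.42, limma adjusted p = 0.00927). Vamp3, a synaptobrevin found mainly outside neurons, was the gene that fell, from 15.2 ± 0.766 to 11.6 ± 0.976 (log2 fold change -0.39, limma adjusted p = 0.00336).

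Of 21 genes of the active zone and of vesicle priming, 7 rose, 1 fell and 13 did not pass, against the same shares of 17.7% and 15.3% over all genes. Rimbp2, which connects RIM to calcium channels, rose from 20.3 ± 3.55 to 32.1 ± 1.85 FPKM (log2 fold change 0.67, limma adjusted p = 0.00262), and Pclo rose as given above. Cadps2, a priming factor of dense core vesicles, fell from 43.0 ± 4.64 to 28.1 ± 1.25 (log2 fold change -0.61, limma adjusted p = 0.000903). Of 19 synaptic vesicle genes, 9 rose and 3 fell, and 7 did not pass. Syn1, or synapsin 1, which tethers vesicles to each other, rose from 38.1 ± 8.06 to 70.7 ± 9.65 (log2 fold change 0.90, limma adjusted p = 0.00237). Doc2a, a calcium sensor of spontaneous release, rose from 9.73 ± 1.72 to 17.1 ± 1.44 (log2 fold change 0.82, limma adjusted p = 0.00149). Sv2c and Synpr fell, with log2 fold changes of -0.82 and -0.74 (limma adjusted p = 0.0012 and 0.00719). Sv2c is a vesicle glycoprotein prominent in the basal ganglia. The striatal sum was lower in each HFD mouse. With the log2 striatal covariate Sv2c was -0.89 (SE 0.65). As 0 of all genes tested passed with that covariate, this fit could not show whether Sv2c follows the striatal markers, which was not tested. Of 12 genes of vesicle endocytosis, 5 rose and 1 fell. Synj1, a lipid phosphatase that helps to uncoat vesicles, rose by 0.40 and the fission enzyme Dnm1 by 0.36 on the log2 scale (limma adjusted p = 0.00236 and 0.00527), while Picalm, a clathrin adaptor, fell by 0.25 (limma adjusted p = 0.012). Without normal mice 2 and 3, Picalm did not pass (-0.16, limma adjusted p = 0.0543) and Snph was 0.26 (limma adjusted p = 0.046). The other genes named in this and the preceding paragraph passed without these mice. Unc13b, given above, and the vesicular transporters Slc17a7 and Slc32a1, given below, did not pass.

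**Figure D5:**
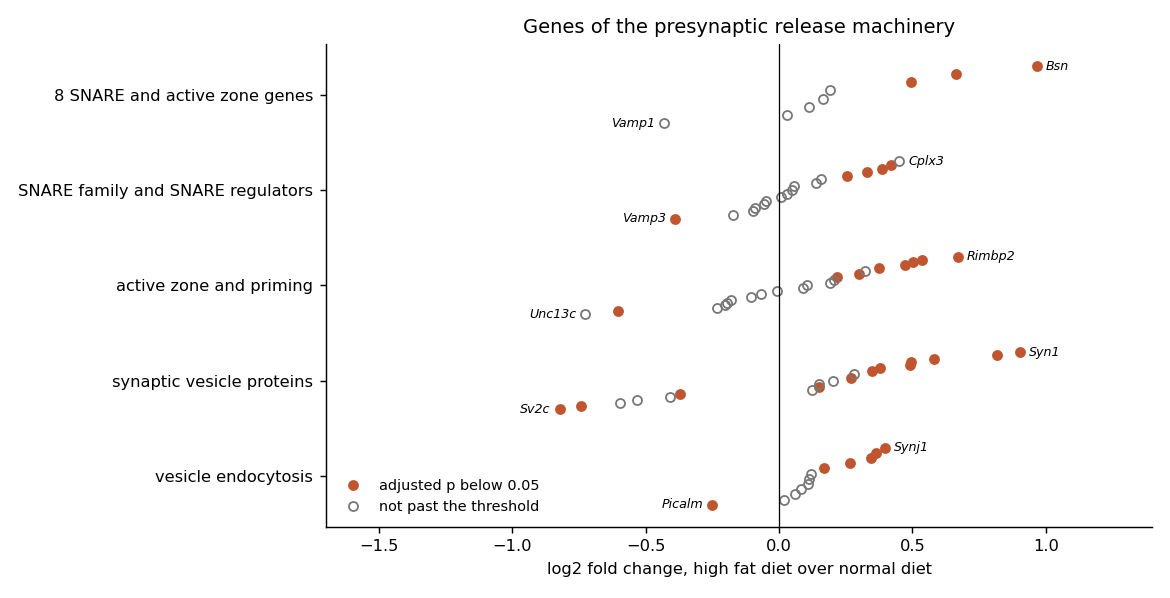
Log2 fold change of HFD over normal diet (x axis) for the 8 genes and the 69 tested genes of 4 wider presynaptic lists (rows), with filled points past an adjusted p of 0.05 in limma and open points not past it. Filled points lie mainly to the right of 0, with 25 higher and 6 lower in the wider lists, and the lowest and highest gene of each row is named.

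For each of the 8 genes, the genes with the most similar profile over the 8 mice were sought among 6886 others with a mean FPKM of at least 10. The measure was the root mean square difference of the log2 values after subtraction of each gene's mean. The profile of Bsn was nearest to Syn1 (0.0613) and to the transcription factor Nfix (0.068), where Bsn itself spread by 0.519 around its mean. Vamp2 was nearest to Nlgn2, an adhesion protein of inhibitory synapses (0.0405), and to RP24-297H17.3 (0.0476). Stx1a was nearest to Olfm2 (0.0522) and the potassium channel Kcnh3 (0.062), which were both lowest in normal mice 2 and 3. Snap25 was nearest to the proton pump subunit Atp6v1g2 (0.0377) and the axonal motor Kif5a (0.0394). Unc13a was nearest to Bzrap1, which encodes a RIM-binding protein (0.0338), and to Faah (0.0383). Rims1, with a spread of 0.0803, was nearest to Ago1 (0.0251) and Gnb1 (0.0263). Rims2 was nearest to Astn2 (0.0418) and Grb10 (0.0507), and Vamp1 to Gprc5b (0.0908) and Sept4 (0.102), where Vamp1 itself spread by 0.337. These distances are descriptions over 8 mice and include the difference between diets.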

How the data were processed

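Paired-end stranded libraries were made from rRNA-depleted cortex RNA. After trimming (Trimmomatic) and alignment to mm10 (STAR), the authors deposited FPKM values from Cuffnorm on GENCODE M17, rounded to 0.1. The sources used here give neither tool versions nor the depth, so no counting interval can be given. The sums of FPKM were 562431 to 639142.3 per mouse. Whether littermates or cages were shared is not stated in the sources used here.

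From the deposited FPKM, log2(FPKM + 0.1) was fitted with limma 3.58.1 in R 4.3.3 (variance trend, two-sided, Benjamini-Hochberg over 13982 genes). Adjusted p-values in the text are from this fit unless a test is named. Fold changes on this scale understate those of low genes. The study applied a t-test per gene after the same filter and kept genes that also passed in a second pipeline (Salmon), whose values were not used here. A change of 50% is a size limit set here. Ratios were compared by an exact permutation test (Python 3.11.15, numpy 2.4.6). On simulated data over 13982 genes, 63 of 100 genes changed by 1.5-fold and 92 of 100 changed by 2-fold were recovered, and 8 unchanged genes were called. The simulated noise was independent between genes, without the shared deviation of normal mice 2 and 3, and few genes were changed. These rates therefore do not carry over to the real calls, where 33.1% of genes passed.

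Coordinates are from GENCODE M21 on GRCm38, whose identifiers matched all 8 genes. Tspoap1 was found under its older symbol Bzrap1, and Vamp7 had no value used here. The named genes were the 8 genes, their related partners, in each wider list up to 2 genes with the largest change each way past the threshold, and the 2 nearest profiles of each gene. Some results under this rule, 1 of the 5 pairs among them, are not reported here. Members and lists were chosen with earlier results of these data known. Alternatives were another added constant, 2 other filters, 2 scalings, an untrended variance, a replicate block, marker covariates and each mouse left out.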

Additional observations from a re-analysis of the deposited data

Results flagged for a closer look

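In 86 groups of 4 mice (43 genes or ratios in both diets), 2 held a mouse far from the others, where chance gives about 1 in 20. HFD mouse 3 had 5.3 FPKM of Sv2c, against 4.0 to 4.2 in the other HFD mice. The same mouse had 124 FPKM of Sept4, against 92.3 to 94.8.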

How the results depend on the processing

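With another constant, other filters, median-ratio scaling and quantile normalization, the calls of the 8 genes did not change. The count of 4626 genes past the threshold moved to between 3671 and 4657. The 3671 came from a filter at a mean FPKM of 5, which tested 9638 genes. There 38.1% passed, against 33.1% in the main fit. Without a variance trend Stx1a missed the threshold (limma adjusted p = 0.0696). With the replicate block Stx1a missed it (log2 fold change 0.49, adjusted p = 0.0943) and Vamp1 passed it (-0.43, adjusted p = 0.0417), so 3 genes still passed. Whether the shared numbers pair the mice is not stated in the sources used here. Deviations of same-numbered mice correlated by -0.109 to -0.0275 across genes, which shows no shared deviation but cannot exclude a pairing. With each mouse left out, Rims2 lay between -0.053 and 0.12 (reversed without normal mouse 1, at -0.053, and normal mouse 4, at -0.019) and the log2 ratio of Rims1 to Rims2 between -0.022 and 0.17.

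Without normal mice 2 and 3, 2743 genes passed, 19 of the wider lists and 1 member by over 50%. With linear cerebellar or thalamic covariates, 2320 and 1838 genes passed, 16 and 15 of the wider lists, and 1 member each by over 50%. The covariates planned on the log scale differ between the diets themselves and widened the standard errors, that of Bsn from 0.127 to 0.225 with cerebellar and 0.654 with striatal markers. With the cerebellar one, 189 genes, 1 member (Rims2, 0.50, limma adjusted p = 0.0485), 0 by over 50% and 0 of the wider lists passed, where 18 of these had an unadjusted p under 0.05. Bsn was 0.65 and Vamp2 0.42, and Snap25 (-0.10), Stx1a (-0.23), Vamp1 (0.15) and Unc13a (-0.15) changed sign. With the thalamic one, 426 genes, 0 members (3 at an unadjusted p under 0.05) and 5 of the wider lists passed. Bsn was 0.61, and Snap25 (-0.010), Vamp1 (0.13) and Unc13a (-0.028) changed sign. With the striatal one, 0 genes passed in limma (276 unadjusted, 0 members and 0 of the wider lists), and Snap25 (-0.11), Vamp2 (-0.16), Rims1 (-0.029), Rims2 (-0.13) and Bsn (-0.069) changed sign, with standard errors of 0.294 or more. Rounding to 0.1 FPKM and 4 mice per diet limit precision, and depth is unknown.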

Other observations

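The vesicular transporters, which load vesicles and mark the transmitter of a terminal, differed in direction, and are named here after their values were seen. Slc17a7 (VGLUT1, of cortical glutamate neurons) rose from 258.6 ± 52.6 to 358.8 ± 30.9 FPKM (log2 fold change 0.49, limma adjusted p = 0.0193), without overlap, but did not pass without normal mice 2 and 3 (0.24, limma adjusted p = 0.0818). Slc32a1 (VGAT, of GABA neurons) fell from 22.3 ± 3.87 to 17.1 ± 1.71 (log2 fold change -0.37, limma adjusted p = 0.0377), and did not pass without these mice (-0.18, limma adjusted p = 0.207). Slc17a6 (VGLUT2, typical of thalamic neurons) was 31.4 and 27.8 in normal mice 2 and 3 and 12.1 and 10.6 in normal mice 1 and 4, against 10.9 to 13.6 in HFD mice, and did not pass (log2 fold change -0.60, limma adjusted p = 0.181, and 0.09 without these mice).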
